A study of Oryza sativa with 8 samples.

Results

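The transcripts described here fell at least 2-fold with ethylene in shoots of wild-type (WT) rice seedlings, while they neither fell beyond a small margin in shoots of the mhz7 mutant nor fell 2-fold in WT roots. They are 136 probe sets of 57258 on the array, and 97 of them have a gene listed, covering 95 genes. Of the 301 probe sets that fell in WT shoots, 122 were set aside because their ethylene difference in mhz7 shoots was not above -0.5 on the log2 scale. A further 32 fell 2-fold in WT roots, 3 had a mean root signal 10 times the shoot signal or more, and 8 were of genes that the rule leaves out by name or family, WRKY, NAC, Aux/IAA and ARF genes among them. The members were thus chosen by their ethylene differences in WT shoots, mhz7 shoots and WT roots and by mean root against mean shoot signal. Those values are given below as descriptions and carry no test.

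The groups were mhz7 and WT seedlings, each kept in 10 ppm ethylene for 8 h or in air, all in the dark at 28 °C at an age of 3 days, and shoots and roots of each were hybridized separately to Affymetrix rice arrays. The gene table gives MHZ7 as another name of EIN2. The sources used here state neither the lesion of the mutant nor how many seedlings went into an RNA sample. Each of the 8 conditions is 1 array, so a difference between arrays cannot be set against replicate spread, and precision is limited by how few arrays there are. Signals were scaled to a common mean of 500 and values under 100 were raised to that floor. A transcript is said to have risen or fallen where the difference reached 2-fold and the brighter array of the pair read 200 or more.

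Ethylene is a gaseous plant hormone that binds receptors in the endoplasmic reticulum membrane. Binding releases EIN2, whose cleaved C-terminal part raises the EIN3 and EIL transcription factors, and these turn the signal into changes of transcription. In dark-grown rice seedlings ethylene is known to promote coleoptile elongation and to inhibit root growth.

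The labelled organs carried their markers. The 6 shoot markers found, among them RBCS and the protochlorophyllide reductase genes PORA and PORB, summed to 75135 to 102726 on the shoot arrays and to 553 to 2479 on the root arrays. The 7 root markers found, among them the silicon transporter genes LSI1 and LSI2 and NAS1 and NAS2 of nicotianamine synthesis, summed to 1836 to 6267 on the shoot arrays and to 93362 to 149304 on the root arrays. EIN2 read 1574 in ethylene and 1532 in air in mhz7 shoots, and 747 and 859 in WT shoots. The 3′ to 5′ ratio of the actin control, which increases with RNA degradation, was 13.5 in ethylene and 9.55 in air in mhz7 shoots, and 8.26 and 6.34 in WT shoots.

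The falls in WT shoots were mostly close to the 2-fold limit. Their median was -1.27 on the log2 scale, 57 of the 136 were smaller than 1.2 in size, 36 reached 3-fold and 12 reached 4-fold. Among 20441 probe sets with a signal of at least 200 in WT shoots in air, which every member had to reach, 1.47% fell and 0.372% rose 2-fold in WT shoots. Just inside the limit stood LOC4350564, with 1057 in ethylene and 2117 in air, LOC4332232, with 1198 and 2406, and a probe set with no gene listed, with 100 and 201.1. The probe sets of LOC4348283 (-0.998) and LOC4342614 (-0.994), and 1 with no gene listed (-0.999), stood just outside it. Member signals ran from 100 to 12223 in WT shoots in ethylene, with a median of 279.8, and from 201.1 to 25164 in WT shoots in air, with a median of 723.

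In mhz7 shoots the same probe sets stood at a median of 1015 in ethylene and 1120 in air. The median ethylene difference was -0.19, against 0.02 for the 20441 probe sets, of which 0.386% fell and 0.044% rose 2-fold. The rule admitted nothing at or below -0.5, and 108 members were below 0, 22 above 0 and 6 exactly at 0 because both arrays were at the floor. For 61 members the mhz7 difference lay at -0.25 or less, so many stood between no difference and the limit of the rule. As 20 members were at the floor in WT shoots in ethylene, their falls are bounds, given as "at least".

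AMY1.1 (LOC4330832), an alpha-amylase gene whose product breaks down starch in germinating seeds, read 621 in WT shoots in air and was at the floor on the other 7 arrays. It was thus at least 6.21-fold lower in ethylene in WT shoots. Without the floor its signal was 11.5 in ethylene and 45.8 in air in mhz7 shoots, against 9.91 and 621 in WT shoots, and on the root arrays it was as low as in WT shoots in ethylene. The mhz7 shoots therefore gave the rule nothing to measure, and AMY1.1 is a member only because it was under the floor in both gases there.

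LOC4330830 is the next protein-coding gene to AMY1.1 in the gene table and had the same profile. It read 710 in WT shoots in air, was at least 7.10-fold lower in ethylene, and was at the floor on the other arrays. LOC4344595 read 628 in WT shoots in air and was at least 6.28-fold lower in ethylene, again with nothing above the floor elsewhere. In all, 5 members were above the floor on the WT shoot air array alone, and 6 were at the floor on both mhz7 shoot arrays. REP1 (LOC4324982), listed also as EP3A and SAG12, a cysteine protease gene, was close to this pattern. It read 118.2 in ethylene and 118.3 in air in mhz7 shoots, and 108.0 and 243.9 in WT shoots.

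Seed tissue was looked at through 9 genes of endosperm, aleurone and scutellum. Their summed signal, without the floor, was 753 in ethylene and 825 in air in mhz7 shoots, and 637 and 1305 in WT shoots. AMY1.1 is itself one of the 9. Without it the sums were 742 and 779 in mhz7 shoots and 627 and 684 in WT shoots. The glutelin gene GLUA2 read 461 and 476 in mhz7 shoots and 385 and 429 in WT shoots, and was above the floor on all root arrays too. RAG2 was above the floor in mhz7 shoots in air and on the root arrays. The other 6, which are the glutelin genes GLUA1, GLUA3 and GLUB4, RAG1 and the amylase genes AMY3D and AMY3E, stood under the floor on every array. The part that tissue left on the seedling plays in the AMY1.1 value was not tested.

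**Figure D1:**
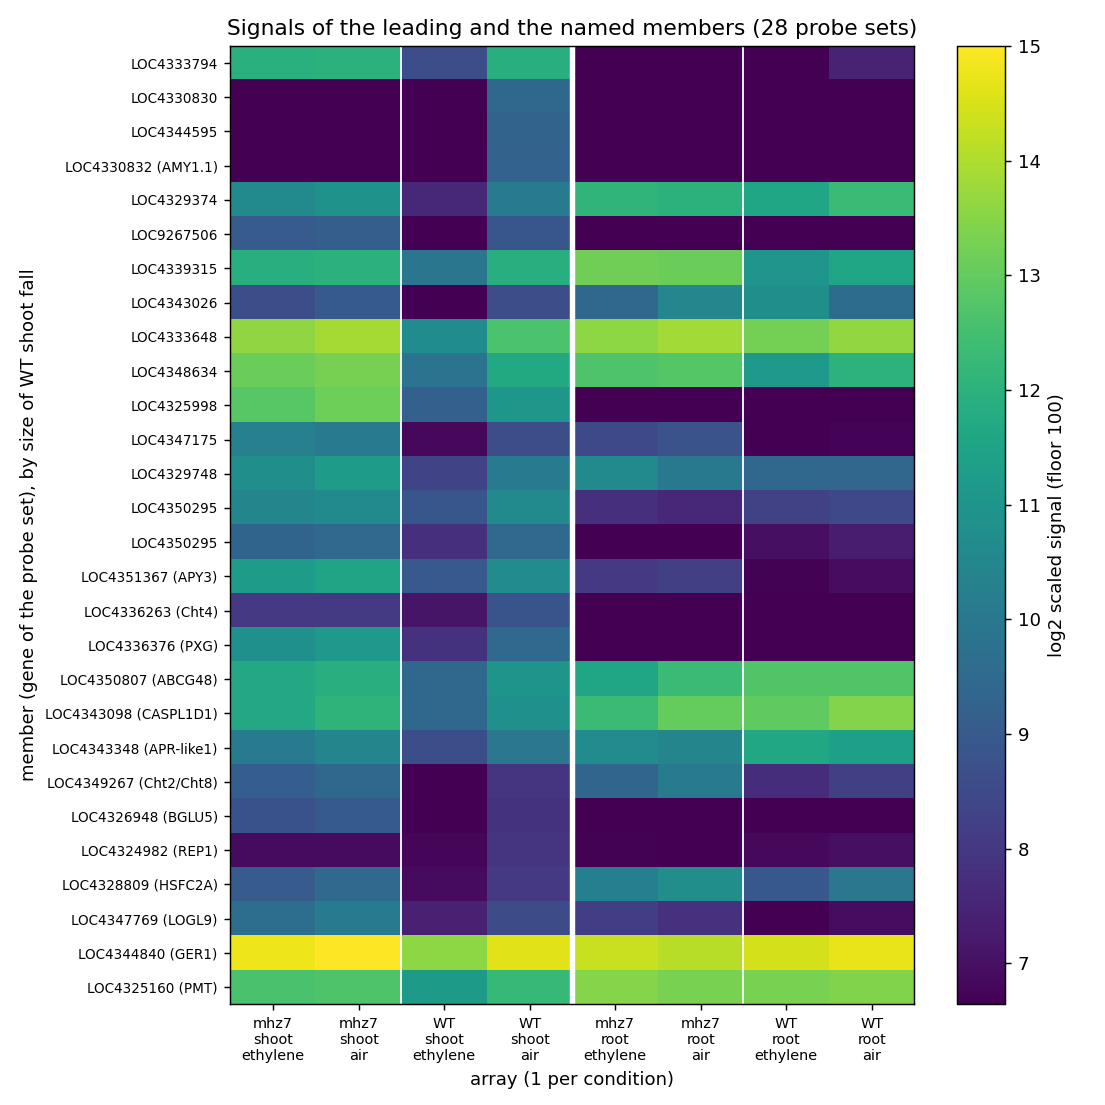
Scaled log2 signal (colour, floor at 100) of 28 members with a gene listed on the 8 arrays, with ethylene left of air, mhz7 left of WT and shoot left of root. Rows run from the largest to the smallest fall in WT shoots; AMY1.1 and its neighbour LOC4330830 are above the floor only in WT shoots in air, while most others are bright in both mhz7 shoot arrays.

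PMT (LOC4325160), listed also as AT4, encodes the acyltransferase that couples p-coumarate to monolignols of grass lignin. It read 6192 in ethylene and 6581 in air in mhz7 shoots, and 2360 and 4821 in WT shoots, with 10116 to 11328 on the 4 root arrays. CASPL1D1 (LOC4343098) encodes a CASP-like membrane protein, a relative of the proteins that place the Casparian strip. It read 3286 in ethylene and 4344 in air in mhz7 shoots, and 685 and 1815 in WT shoots, and its root signals were higher, from 5235 to 11285. Both genes fell in WT shoots and kept within 2-fold in the other pairs of gas.

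The chitinase genes Cht4 and Cht2, the second also listed as Cht8, were dim in WT shoots. Cht4 (LOC4336263) read 262.6 in ethylene and 270.1 in air in mhz7 shoots, 140.3 and 445.9 in WT shoots, and was at the floor in roots. Cht2 (LOC4349267) read 560.7 and 710.5 in mhz7 shoots and was at the floor in ethylene and at 242.5 in air in WT shoots, a fall of at least 2.42-fold. Cht2 and Cht4 differ in mhz7 shoots in air, where Cht4 stood below WT (log2 difference -0.72) and Cht2 above it (1.55).

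BGLU5 (LOC4326948), of the family of beta-glucosidases, read 430 in ethylene and 512 in air in mhz7 shoots, was at the floor in ethylene and at 235.9 in air in WT shoots, and was not read above the floor in roots. GER1 (LOC4344840) was one of the brightest members. It read 28412 in ethylene and 32419 in air in mhz7 shoots, and 12223 and 25164 in WT shoots. Its root signals were 20243 and 17734 in mhz7 and 22387 and 27023 in WT, so the WT shoot in ethylene was the lowest of its 8 values.

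LOGL9 (LOC4347769), of the LOG-like enzymes that release active cytokinin, read 803 in ethylene and 1116 in air in mhz7 shoots, against 172.1 and 376.6 in WT shoots. In roots it read 290.1 and 226.3 in mhz7, and 102.1 and 120.1 in WT. PXG (LOC4336376), a peroxygenase gene of oxylipin and cutin metabolism, read 1844 and 2243 in mhz7 shoots, against 235 and 720 in WT shoots, and was at the floor in roots. Its WT fall was 3.07-fold, and both mhz7 shoot values lay above both WT values, as they did for LOGL9.

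APY3 (LOC4351367), an apyrase gene whose product hydrolyses nucleoside phosphates, read 2409 in ethylene and 2914 in air in mhz7 shoots, against 506 and 1626 in WT shoots. ABCG48 (LOC4350807), an ABC transporter gene, read 3283 and 3830 in mhz7 shoots and 691 and 2021 in WT shoots. In roots it read 3089 in ethylene and 5168 in air in mhz7, and 6857 and 6809 in WT, so mhz7 roots in ethylene stood below both mhz7 shoot values and the other root arrays above every shoot value. APR-like1 (LOC4343348), related to adenylylsulfate reductase of sulfur assimilation, read 1054 and 1394 in mhz7 shoots and 403 and 992 in WT shoots. The mhz7 value in ethylene was thus close to the WT value in air for APR-like1 and above it for APY3 and ABCG48.

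HSFC2A (LOC4328809), a class C heat stress transcription factor gene, was the only listed transcription factor among the 14 members with a name. It read 532 in ethylene and 724 in air in mhz7 shoots and 119 and 260 in WT shoots, with 1226 and 1755 in mhz7 roots and 494.9 and 983 in WT roots. Ethylene values were the lower ones in all 4 pairs, and only the pair of WT shoots passed 2-fold. In WT roots the difference was -0.99, just short of the limit that would have removed it.

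The other 81 genes were listed by locus number alone, and several had larger falls than any named gene but AMY1.1. LOC4333794 read 3992 in ethylene and 4138 in air in mhz7 shoots, and 392.3 and 3768 in WT shoots, a 9.60-fold fall. Both mhz7 values were near that of WT shoots in air, and in roots it was at the floor except at 178.6 in WT in air. A probe set with no gene listed had the largest fall of all, 11.3-fold, with 1013 in ethylene and 1410 in air in mhz7 shoots and 112.8 and 1278 in WT shoots. Its probe set was at the floor on all root arrays. LOC4333794 was lower in ethylene in WT roots too, with a difference of at least 0.84 in size on the log2 scale, but both root signals were under 200. The shoot markers were also lower in sum on the WT root arrays, at 972 in ethylene and 2479 in air. The part of shoot RNA in the root values of LOC4333794 was not tested. A further 4 probe sets with no gene listed fell 4.46- to 5.04-fold, and 2 of these share a design number and so may read 1 transcript.

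LOC4329374 read 1609 in ethylene and 1904 in air in mhz7 shoots, and 189.9 and 1059 in WT shoots, a 5.58-fold fall. It was brighter in roots, with 4446 and 4179 in mhz7 and 3101 and 5147 in WT, a WT root difference of -0.73. LOC4339315 read 3803 and 4135 in mhz7 shoots, and 961 and 3898 in WT shoots, a 4.06-fold fall. LOC9267506 read 533 and 573 in mhz7 shoots and was at the floor in ethylene and at 469 in air in WT shoots, a WT fall of at least 4.69-fold. For LOC4329374 and LOC9267506 both mhz7 shoot values lay above the WT value in air, and for LOC4339315 the mhz7 value in ethylene lay just below it.

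LOC4333648, LOC4348634 and LOC4325998 fell 3.80-, 3.76- and 3.60-fold in WT shoots and were already higher in mhz7 shoots in air. LOC4325998 read 7254 in ethylene and 9055 in air in mhz7 shoots, against 597 and 2149 in WT shoots, and was at the floor on all root arrays. LOC4348634 read 8914 and 9946 in mhz7 shoots, against 907 and 3406 in WT shoots. LOC4333648 read 12473 and 15177 in mhz7 shoots, against 1663 and 6321 in WT shoots. In these 3 genes the lower mhz7 value exceeded the higher WT value.

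LOC4350295 was read by 3 member probe sets, which cannot count as independent members. Their ethylene differences were -0.17, -0.17 and -0.29 in mhz7 shoots, and their WT shoot falls 3.35-, 3.34- and 2.99-fold. Keeping for each gene only its brightest probe set on the whole array, whether a member or not, left 131 members.

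How far the falls were restricted to shoots depends on the root signal. On all 4 root arrays 50 members read under 200, and 34 of these were at the floor throughout, so they could not have been called changed in roots. The other 86 read 200 or more on at least 1 root array. Of these 86, 64 were below 0 and 20 above 0 in WT roots, and 31 lay at -0.5 or less but above the limit of -1. Over all members 53.7% were below 0 in WT roots, against 40.1% of the 20441 probe sets, and the rule used these values. Examples between -0.5 and -1 are LOC4346129, which read 19128 in ethylene and 20209 in air in mhz7 roots and 9013 and 16367 in WT roots, and HSFC2A.

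Mean shoot signal exceeded mean root signal by 2-fold or more for 69 members, mean root signal exceeded mean shoot signal by 2-fold or more for 26, and 41 lay between. The widest shoot excess was that of LOC4333623, 93.4-fold, with 14072 in ethylene and 14800 in air in mhz7 shoots and 3943 and 11219 in WT shoots. The widest root excess was that of LOC4346856, 7.71-fold. Median WT shoot falls were -1.39, -1.23 and -1.16 in the shoot-bright, root-bright and intermediate members.

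**Figure D2:**
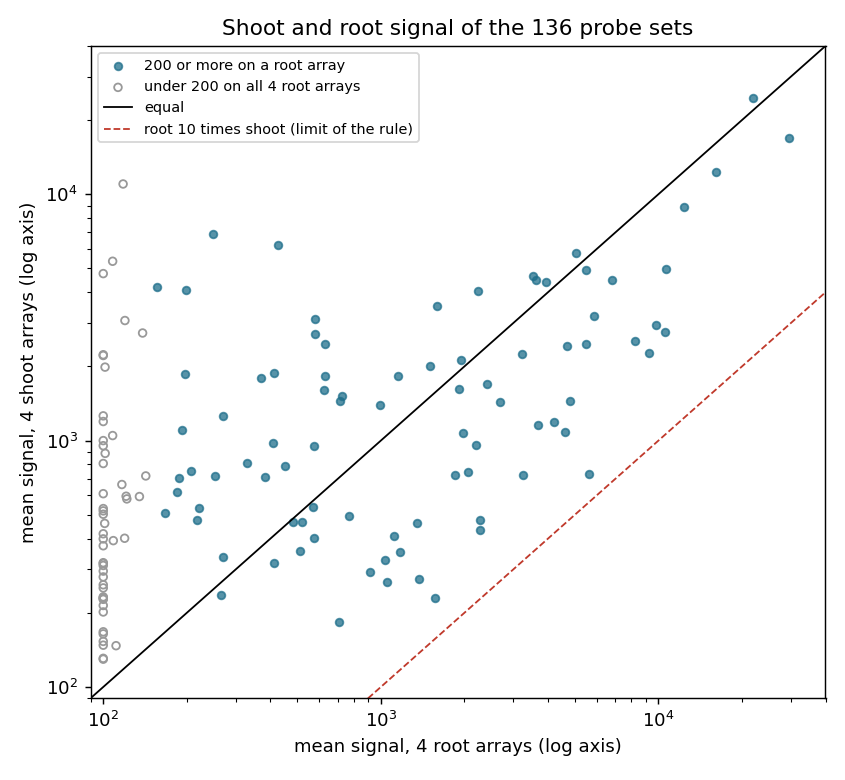
Mean signal of the 136 members over the 4 shoot arrays (vertical, log axis) against the 4 root arrays (horizontal, log axis), each point a probe set. Open points, 50 in all, read under 200 on every root array; the dashed line is the limit of the rule, and 69 members lie at 2-fold or more on the shoot side.

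The root markers on the shoot arrays were lower in ethylene in sum in both genotypes. All 7 summed to 1836 in ethylene and 4105 in air on the mhz7 shoot arrays (log2 difference -1.16), and to 3735 and 6267 on the WT shoot arrays (-0.75). Without the aquaporin gene TIP2-1, left out after its values were seen, the differences were -0.66 in mhz7 and -0.54 in WT. NRT2.2 was higher in ethylene in both genotypes, and YSL15 was level in WT. The 26 root-bright members had a median of -0.33 in mhz7 shoots and -1.23 in WT shoots, an order that the rule sets. Fewer cells of a type and less RNA per cell cannot be told apart in such samples, and neither shoot expression of these markers nor the part of root RNA in the falls of the 26 members was tested. On the root arrays the 6 shoot markers summed to 553 in ethylene and 841 in air in mhz7, and to 972 and 2479 in WT. The part of shoot RNA in the members' root values was not tested either.

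**Figure D3:**
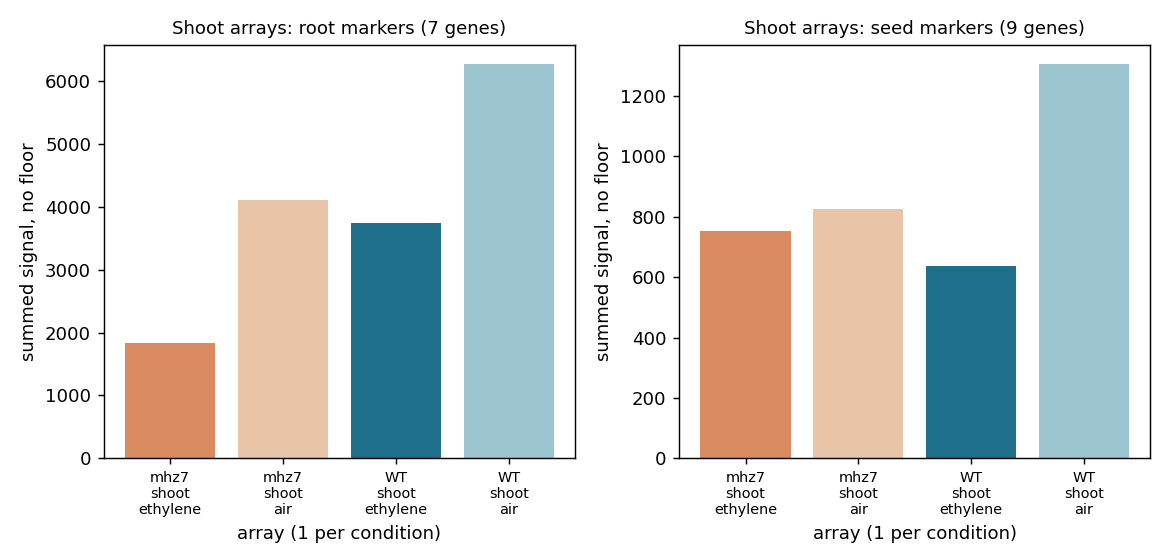
Summed signal without the floor (bars) of 7 root markers and 9 seed markers on the 4 shoot arrays. In sum, root markers are lower in ethylene than in air in mhz7 (1836 against 4105) and in WT (3735 against 6267); the seed sum of WT in air, 1305, is 684 without AMY1.1.

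Ethylene minus air in mhz7 roots is the gas difference that the rule did not use, though both arrays entered its mean root signal. There 1 member fell and 1 rose 2-fold (0.735% of the members each), against a background of 0.553% of the 20441 probe sets falling and 0.196% rising. The shares are near the background and rest on single probe sets. The median difference was 0.00, as for the background, and it was -0.13 over the 86 members read at 200 or more on a root array. Of these 86, 55 were below 0 and 31 above, and 18 lay at -0.5 or less.

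The member that fell in mhz7 roots was LOC4343026, which read 686 in ethylene and 1473 in air in mhz7 roots and 1773 and 772 in WT roots. Its shoot signals were 406 and 516 in mhz7, and at the floor in ethylene and at 394 in air in WT. The member that rose has no gene listed and read 316 in ethylene and 128.6 in air in mhz7 roots, close to the floor. Differences short of 2-fold included LOC4327580 (-0.95), LOC4346856 (-0.86) and LOC4352488 (-0.85) on the lower side and LOC4339989 (0.92) and LOC4329748 (0.58) on the higher side. LOC4339989 was also higher in ethylene in WT roots (0.82), with 1186 in ethylene and 671 in air.

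In WT roots 2 members rose 2-fold, 1.47% against a background of 0.68%. LOC4339960 read 299 in ethylene and 417 in air in mhz7 roots, and 1405 and 390 in WT roots, a 3.61-fold rise. In shoots it read 2943 and 3602 in mhz7 and 240 and 544 in WT. LOC4343026 rose 2.30-fold. No member fell 2-fold in WT roots because the rule removed such probe sets, against a background of 0.822%.

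**Figure D4:**
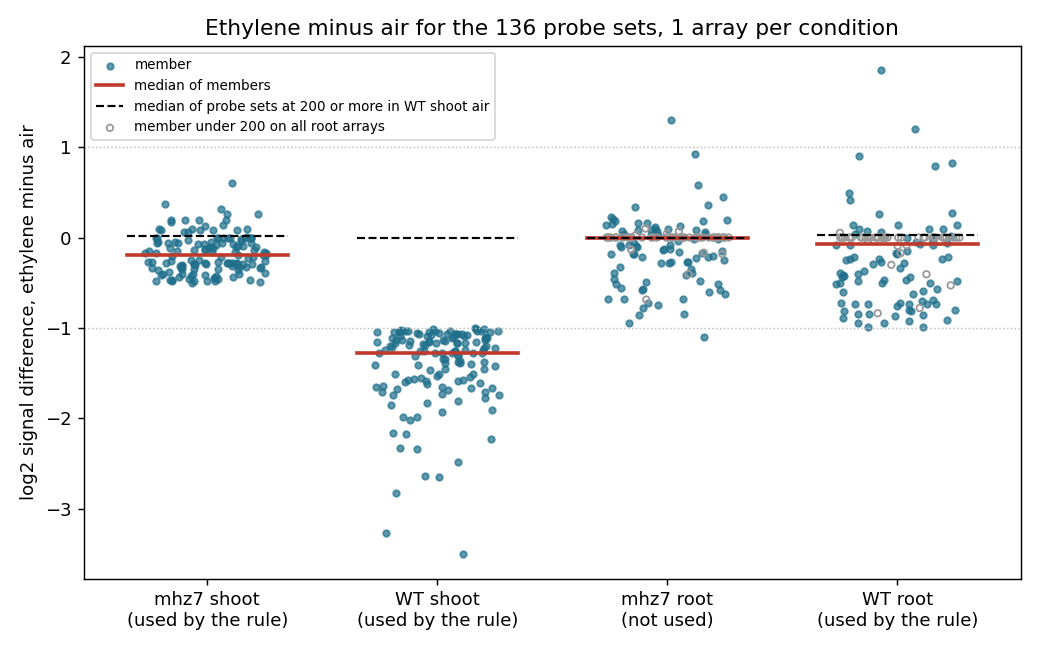
Ethylene minus air on the log2 scale for the 136 members in mhz7 shoots, WT shoots, mhz7 roots and WT roots, each point a probe set, with the members' median (red) and that of 20441 probe sets at 200 or more in WT shoots in air (dashed). The differences in mhz7 shoots, WT shoots and WT roots chose the members. In mhz7 roots, where the difference did not, the median is 0.00 and 1 member lies beyond each 2-fold line.

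Setting mhz7 against WT in shoots shares the arrays that chose the members, so the following is a description. In ethylene 111 of the 136 members were higher in mhz7 shoots and none lower, with a median of 1.65 (background 2.50% higher and 2.07% lower). In air 34 were higher (background 1.25%) and 8 lower (5.88%, background 1.26%), with a median of 0.47. All 34 were among the 111, and 77 members were higher in mhz7 in ethylene but not in air. For these 77 the genotypes were apart 2-fold only on the ethylene arrays.

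The 34 members that were higher in mhz7 shoots in air fell in WT shoots by a median of -1.40, against -1.24 for the 94 within 2-fold in air. LOC4340892 had the largest difference in air, 3.30, with 3675 in ethylene and 4548 in air in mhz7 shoots and 179.4 and 460.5 in WT shoots, and was at the floor in roots. LOC4339960 (2.73), LOC4325998 (2.08) and LOC4344780 (2.07) were also high, as were 2 probe sets with no gene listed (2.18 and 2.13). LOC4344780 read 4452 in ethylene and 5584 in air in mhz7 shoots and 436 and 1327 in WT shoots. Such genes stood lower in WT than in mhz7 shoots already in air, and their WT signal was lower still in ethylene.

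The 8 members lower in mhz7 shoots in air were all dim or at the floor outside WT shoots in air. They were AMY1.1 (-2.63), LOC4330830 (-2.83), LOC4344595 (-2.65), LOC9267997 (-1.43), REP1 (-1.04) and 3 probe sets with no gene listed, 2 of which share a design number and so may read 1 transcript. LOC9267997 was at the floor in mhz7 shoots and read 122 in ethylene and 269 in air in WT shoots. Where mhz7 is at the floor, these differences are bounds.

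Setting mhz7 against WT in roots was not itself used by the rule. The rule did bound the ethylene difference in WT roots, and the mean of the 4 root arrays against that of the shoot arrays. In air 16 members were higher in mhz7 roots (11.8%, background 1.25%) and 2 lower (1.47%, background 1.24%). In ethylene 28 were higher (20.6%, background 2.46%) and 8 lower (5.88%, background 3.34%). The same 2 WT root arrays served the bound on WT roots, and the median over all 136 was 0.00 in both gases because many members were at the floor. Over the 86 members read at 200 or more on a root array, a step chosen after seeing the data, it was 0.32 in ethylene and 0.18 in air. Some members, LOC4347175 among them, reached 200 in mhz7 roots alone. The step thus selects partly on high mhz7 signal, and these 2 medians give no support for a difference. In both gases 15 members were higher and 1 lower. The shares of all 20441 probe sets that did so in both gases were not counted. They cannot exceed the shares in air alone, 1.25% higher and 1.24% lower.

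In 7 members mhz7 stood at least 2-fold above WT in all 4 conditions of tissue and gas. The share of all 20441 probe sets that did so was not counted, and it cannot exceed the 1.25% of shoots in air. The rule favours the condition of shoots in ethylene, which 111 of the 136 members met. LOC4347175 read 1252 in ethylene and 1094 in air in mhz7 shoots, against 113 and 404 in WT shoots, and 363 and 440 in mhz7 roots, against 100 and 106 in WT roots. Cht2 read 656 and 1122 in mhz7 roots, against 212 and 302 in WT roots. LOC4344780 read 12316 and 15646 in mhz7 roots, against 3898 and 7499 in WT roots. LOC4346854 and 3 probe sets with no gene listed were the others, and 1 of these 3 read 558 and 557 in mhz7 roots and was at the floor in WT roots.

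The largest excess in mhz7 roots in ethylene was that of LOC4349318 (2.71), with 5544 in ethylene and 4886 in air in mhz7 roots and 846 and 1674 in WT roots. LOC4339315 read 9349 and 8910 in mhz7 roots against 2046 and 3045 in WT roots. LOC4339960 (-2.23), LOC4346856 (-1.86) and LOC4343852 (-1.73) stood lowest against WT in ethylene. Of these, LOC4339960 had risen in WT roots with ethylene, and LOC4346856 read 2373 in ethylene and 4311 in air in mhz7 roots and 8637 and 7182 in WT roots. Lower in both gases was LOC4327297, with 203 and 303 in mhz7 roots and 457 and 744 in WT roots.

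A fit with limma over the 4 root arrays, with gas as a block and 1 residual degree of freedom, tested this genotype difference on 21444 probe sets, of which 116 were members. After Benjamini-Hochberg adjustment limma called 0 members higher and 0 lower (background 0%), and the smallest adjusted p among them was 0.199. At an unadjusted p under 0.05 the fit held 49 of the 116 members (42.2%), 30 higher and 19 lower, against 5053 of all 21444 (23.6%). The 2 gases serve as pairs here, so a genotype difference that truly depends on gas counts as error. A small p thus needs both pairs to agree, and their shared direction adds no support. The rule bounded the ethylene difference of the members in WT roots, which enters that error, and not that of the other probe sets. Some members were also at the floor on all 4 root arrays. The shares of 42.2% and 23.6% are therefore a description and not a test of the members. Members with the smallest limma p included LOC4339989 (1.56, SE 0.0593, adjusted p = 0.199, higher in 2 of 2 pairs) and APY3 (1.33, SE 0.0526, adjusted p = 0.199, higher in 2 of 2 pairs). APY3 read 264.2 in ethylene and 297.6 in air in mhz7 roots, and 102.9 and 121.0 in WT roots, close to the floor. Members at the floor on all 4 root arrays had an SE of 0.0482, so the SE of APY3 says little about precision.

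With the minimum signal taken over the root arrays in place of all 8, a step chosen after seeing the data, limma tested 78 members of 20512 probe sets and called 8 higher (background 1.26%) and 4 lower (background 0.78%). The genes called higher were LOC4347175 (1.96, adjusted p = 0.0358), LOC4339989 (1.56, adjusted p = 0.037), Cht2 (1.76, adjusted p = 0.0404), LOC4339315 (1.87, adjusted p = 0.0484) and LOC4327580 (1.01, adjusted p = 0.0496), beside 3 probe sets with no gene listed. Called lower were LOC4327297 (-1.23, adjusted p = 0.0404), LOC4341509 (-0.96, adjusted p = 0.0436), LOC4350295 (-1.07, adjusted p = 0.0444) and APR-like1 (-0.92, adjusted p = 0.0451). For LOC4350295 only 1 of its 3 member probe sets was called. With the minimum taken over all 8 arrays their differences were -1.07, -0.725 and -0.51. Each of the 12 probe sets called had the same direction in both gases. That follows from the call, because the 1 residual degree of freedom is the disagreement between the 2 gases. The root minimum also admits probe sets that are bright in mhz7 roots alone. LOC4347175 and 1 probe set with no gene listed, which had the smallest adjusted p, were at or close to the floor in WT roots. Their gas difference in WT roots could hardly be read, so their small errors say little about precision.

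**Figure D5:**
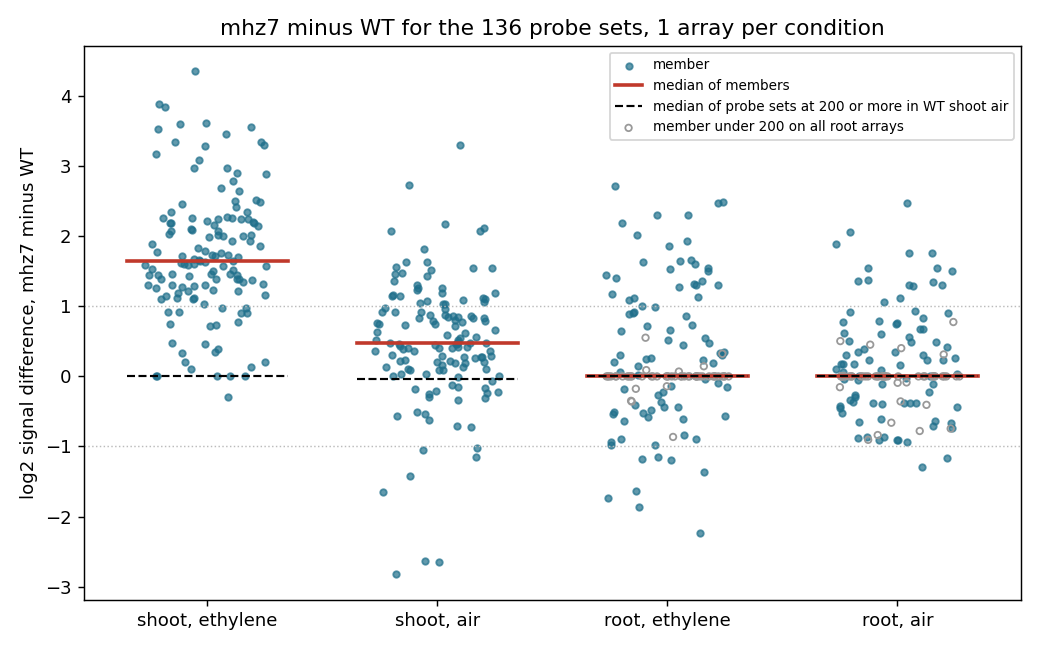
The log2 difference of mhz7 minus WT for the 136 members in shoots and roots, in ethylene and in air, each point a probe set, with the members' median (red) and that of 20441 probe sets (dashed). In shoots the medians are 1.65 in ethylene and 0.47 in air; in roots both are 0.00, with 28 members above the upper 2-fold line in ethylene and 16 in air.

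By position, 93 of the 95 member genes could be placed, and 3 pairs of them lay within 5 steps of each other in the gene table's order of protein-coding genes, and 2 pairs were direct neighbours. AMY1.1 and LOC4330830 are 1 such pair and share the profile given above, and reads of one probe set by the transcript of a similar neighbour were not tested. LOC4346854 and LOC4346856 are the other. In mhz7 roots in ethylene LOC4346854 stood above WT (2.31) and LOC4346856 below it (-1.86), so these neighbours moved apart in roots while both fell in WT shoots.

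Gene families and hormone pathways were looked up by gene symbol or synonym. Of the 95 member genes, 81 were listed by locus number alone and could not be found this way. A small overlap therefore says little about these pathways. Over 20 lists of gene families and hormone pathways, 19 had measured genes, 354 entries in all. Of the entries, 4 fell in mhz7 shoots (background 0.386%) and 10 in WT shoots (background 1.47%). CYP701A8 was counted in 2 lists, that of cytochrome P450 genes and that drawn by gibberellin symbols. A match by symbol or synonym does not show that a gene acts in gibberellin synthesis. Members occurred in 2 lists, AMY1.1 among 5 alpha-amylase genes on the array and BGLU5 among 60 genes of starch, sugar and beta-glucosidases. Neither reached the mean signal of 200 that counted as measured. Of the 44 measured genes of that second list 0 fell and 1 rose in WT shoots, and of 46 expansin, XTH and cellulose synthase genes 0 fell and 1 rose. The background was 1.47% falling and 0.372% rising, so 0 falls in lists of this size is near that share. The list of cytochrome P450 genes held 0 falls among 22 measured genes in mhz7 shoots (background 0.386%) and 4 in WT shoots (background 1.47%). None of the 4 is a member, and the rule leaves out CYP99A3 and CYP71Z7 by name.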

How the data were processed

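Total RNA of mhz7 and WT roots and shoots, 5 µg per sample, was labelled with biotin and hybridized to Affymetrix rice arrays, per the labels' protocols, after germination at 37 °C for 2 days. The authors deposited linear intensity values, 1 for each probe set. The submitters' processing notes name MAS5; no source used here states its version or scaling target. Of 57381 probe sets, 123 controls were set aside. Arrays were scaled by factors of 2.00 to 2.10, which brought the mean without the highest and lowest 2% to 500, then floored at 100 (51.5 to 53.1% of an array) and taken to log2. In the table of array genes 22436 probe sets had 1 gene, 95 had several and 34727 had none listed; all 22436 matched the gene table of the ASM3414082v1 assembly, used for names and neighbours only. Names are its symbols or synonyms.

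The members, gene lists and tests were chosen with earlier results of these data known. Named are the largest falls (10 measured, 5 at the floor), members with a name, the extremes of mhz7 roots and of the genotype differences, those with the smallest p and those at the limit; extremes of genotype and organ were added after their values were seen. limma 3.58.1 in R 4.3.3 fitted gas and genotype on 4 root arrays, with a minimum mean signal of 200. It was also run on simulated data to which the floor was not applied after noise was added. That run therefore says nothing about members at the floor. Other steps used Python 3.11.15 with numpy 2.4.6 and pandas 2.3.3.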

Additional observations from a re-analysis of the deposited data

Results flagged for a closer look

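Ethylene differences of opposite direction, each at least 2-fold, occurred for 3 members between tissues or genotypes. LOC4343026 had -1.1 in mhz7 roots, against -1.98 in WT shoots and 1.2 in WT roots. LOC4339960 had -1.18 in WT shoots and 1.85 in WT roots. A probe set with no gene listed had 1.3 in mhz7 roots and -1.05 in WT shoots. With 1 array per condition, none of these differences between groups was tested.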

How the results depend on the processing

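The number of members was 133 with a floor of 50, 103 with a floor of 200, 130 with quantile normalization and 46 with a fall of 1.5 on the log2 scale. Of the 103, 100 were members under the settings used. The median of mhz7 minus WT in root in ethylene was 0.11 with a floor of 50 and 0.32 over members at 200 or more on a root array; in root in air it was 0.18 over the same members, and that of ethylene minus air in mhz7 root was -0.13. The median of mhz7 minus WT in shoot in ethylene was 1.67 with a floor of 50, 1.48 with a floor of 200, 1.64 with quantile normalization and 1.70 over the members above the floor on a mhz7 shoot array, which gave 0.51 in air. The count lower in mhz7 shoots in air was 3 with a floor of 200 and 2 over those members, against 8. Keeping only those members drops the 6 at the floor on both mhz7 shoot arrays, all of them lower in mhz7 in air. The count of 2 and the higher medians over those members therefore follow from the choice. The root fit called 8 members higher and 4 lower with the minimum taken over the root arrays, and 0 under its 6 other alternatives. The steps over members read on root or mhz7 shoot arrays and the root minimum were chosen after seeing the data. All of them select partly on mhz7 signal, so what they give for mhz7 minus WT follows in part from that selection. The labels give no replicate numbers, so arrays could be paired only by gas, as in the root fit. The floor limits what dim members can show.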
